A study of Drosophila melanogaster with 3 samples.

Results

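The X chromosome peaks of Xbp1 are the regions of the X on which ChIP-seq placed the transcription factor Xbp1 in whole embryos of the fruit fly Drosophila melanogaster. They were taken as every peak on chrX in the dm6 list of peaks that passed the irreproducible discovery rate (IDR), a test of how well replicates rank the same peaks. They number 1372 of 7291 peaks, and the other 5919 lie on the autosomes. The embryos were aged 0 to 24 h, were pooled male and female, and came from a transgenic line, Xbp1-GFP, that stably expressed Xbp1 with GFP fused at its C terminus. Chromatin was sonicated to fragments of 200 to 800 bp and precipitated with an antibody to GFP. The 3 samples were biological replicates of this 1 group, with no second genotype or treatment. The tagged protein, not the endogenous one, was precipitated, and the whole embryo mixes all cell types and stages. Males carry a single X, so the pool held fewer X copies than autosome copies, and the part of copy number in any X value was not tested. The control sample was not analysed here, and read depth is unknown.

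The unfolded protein response widens the capacity of the endoplasmic reticulum (ER) to fold and export proteins, and Xbp1 is its bZIP activator. Unconventional splicing of the Xbp1 mRNA by the ER sensor Ire1 yields the active protein, which is prominent in secretory cells. In male flies the single X is transcribed at a raised rate by the dosage compensation complex, which holds the acetyltransferase mof and the roX RNAs.

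The signal of a peak is the authors' value, on a scale that is not stated, and is compared here within a list only. The strongest X peaks are shown first, because they set the top of the range. Sequence is from the Release 6 genome (RefSeq, dm6), 5′ to 3′ on the plus strand, 50 bp to each side of the summit, or 30 bases where the window touched a UTR. Capitals mark the 5 bases ACGTG on either strand, the core of the site of many bZIP and bHLH factors. Of the 10 strongest X peaks, 2 had this core within 50 bp of the summit, both at Hsc70-3. Over all X peaks the share was 7.87% at the summit, and 9.33% and 9.62% in windows centred 500 bp to either side. A match is thus a description of the letters, not a tested site.
Ugalt, chrX:2703879-2703908: aatttaaaagtgcattgtgcatttcagtaa
ph-p, chrX:2137286-2137386: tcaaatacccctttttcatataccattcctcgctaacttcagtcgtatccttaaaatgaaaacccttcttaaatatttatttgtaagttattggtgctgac
CG32772, chrX:4910308-4910408: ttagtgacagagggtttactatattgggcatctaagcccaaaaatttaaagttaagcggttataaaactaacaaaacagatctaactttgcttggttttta
Hsc70-3, first peak, chrX:11806395-11806495: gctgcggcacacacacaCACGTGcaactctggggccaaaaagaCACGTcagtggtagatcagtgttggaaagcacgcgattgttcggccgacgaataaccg
Hsc70-3, second peak, chrX:11807144-11807244: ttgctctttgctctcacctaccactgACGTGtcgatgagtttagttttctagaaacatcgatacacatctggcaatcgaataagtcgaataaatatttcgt

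The second set is every X peak with TGACGTGG within 50 bp of its summit on either strand. These 8 bases are called the UPR element and are recognised in mammals by XBP1 and ATF6. Each peak is named by the gene with the nearest start. The CG12539 peak lay in an intron of Flo2, 1637 bp from the CG12539 start. The Grp170 peak, of signal 235, lay in an intron 801 bp inside and is not its promoter peak. The 7 peaks are shown because 4 of the genes so named act in the secretory pathway and because of their ranks in the replicates, described at the end. The share of such genes over all X peaks was not counted. Capitals mark the element, and sequences for CG1840 and SrpRalpha are on the minus strand. A match is a description of the letters, not a tested site.
Sec22, chrX:806090-806119: ggacataccggTGACGTGGttacattgcaa
Gmap, chrX:15486600-15486629: aatttatgaagTGACGTGGctctctctttg
SrpRalpha, chrX:11129054-11129083: cgctaggcaagTGACGTGGaacgtgtggca
Grp170, chrX:2273927-2274027: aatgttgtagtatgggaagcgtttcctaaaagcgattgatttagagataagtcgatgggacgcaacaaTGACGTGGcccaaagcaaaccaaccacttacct
CG1840, chrX:11888374-11888403: aaaaaaaaaatTGACGTGGtgtttagagat
CG17598, chrX:22540150-22540179: ctcactcccacTGACGTGGcgagcttgctt
CG12539, chrX:14846344-14846444: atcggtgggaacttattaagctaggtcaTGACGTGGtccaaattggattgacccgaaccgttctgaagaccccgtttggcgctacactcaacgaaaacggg

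X peaks lay in introns more often than autosomal peaks did, and less often at promoters or between genes. The excess was among distal peaks, those whose summit was more than 500 bp from the start of every protein-coding gene, and was found inside introns. Promoter peaks were about as dense on the X as on the autosomes, but their signal was lower. Per Mb of sequence between genes, the density of all peaks did not differ detectably either. The share of genes bound did not differ detectably. Tests made over peaks or genes carry the counting error of the lists alone, and 3 replicates of 1 group cannot give an exact sign permutation p below 0.25.

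In the thresholded list 42.4% of X peaks (582 of 1372, Clopper-Pearson 95% interval 39.8 to 45.1) were promoter peaks, with the summit within 500 bp of a protein-coding start. The autosomal share was 48.9% (2896 of 5919). The difference was −6.51 percentage points (Newcombe 95% interval −9.39 to −3.58), and Fisher's exact test gave an adjusted p of 5.42e-05. Among the 7291 strongest peaks of each replicate, X shares were 41.1%, 47.4% and 39.7% in replicates 1, 2 and 3, against autosomal shares of 47.3%, 54.6% and 45.0%. The X share was lower in 3 of 3 replicates, with a difference of −6.22 ± 0.946 points (SD, n = 3; exact sign permutation p = 0.25, two-sided). Replicate 2 had the highest promoter share on both the X and the autosomes, so the 2 groups of values overlap across replicates but not within one. In the whole replicate lists, which reach far weaker peaks, the odds ratios averaged 0.998, and in replicate 3 the X share was the higher one.

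By chromosome, the X had the lowest promoter share of the 6. The next lowest was 3L at 45.4%, which did not differ from the X by Fisher's exact test (adjusted p = 0.115 over 10 comparisons with single arms). The shares on 2L (47.7%), 3R (49.4%), 2R (53.5%) and the small chromosome 4 (62.2%) were higher than on the X, with adjusted p between 2.89e-08 and 0.0207. Promoter windows made up 11.0% of X sequence and 11.5% of autosomal sequence, so promoters held 3.85 times their share of summits on the X and 4.24 times on the autosomes.

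**Figure D1:**
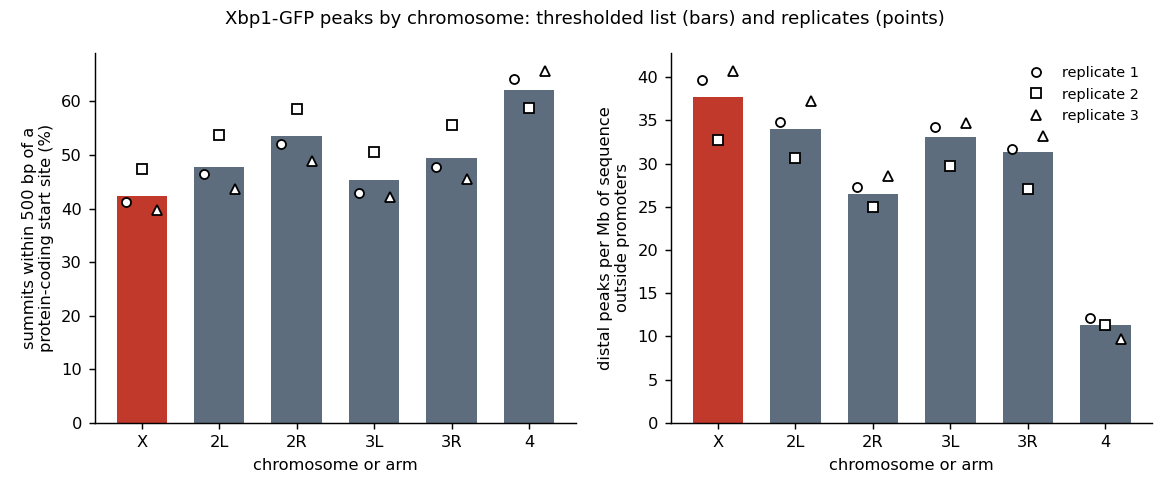
Left, percentage of peaks with the summit within 500 bp of a protein-coding start; right, distal peaks per Mb of sequence outside promoters, for each chromosome or arm. Bars are the thresholded list and points the 7291 strongest peaks of each replicate; the X has the lowest promoter share (42.4%) and the highest distal density (37.7 peaks per Mb) in the thresholded list.

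Introns held 55.4% of X summits (760 of 1372) and 41.2% of autosomal summits. The odds ratio was 1.77, with an adjusted p of 5.70e-21 by Fisher's exact test over 6 location classes. In replicates 1, 2 and 3 the X intron shares were 56.5%, 52.3% and 56.5%, against 42.1%, 38.0% and 43.6%. No autosomal value reached the lowest X value. The X intron share was also higher than that of each autosome or arm taken singly, with adjusted p of 2.16e-05 or less, and the closest was 3R at 43.1%. Introns were 46.7% of X sequence and 41.8% of autosomal sequence, so the excess went with a smaller difference in the intron share of sequence.

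Sequence between genes held 31.6% of X summits and 45.5% of autosomal summits (odds ratio 0.552, adjusted p = 5.70e-21 by Fisher's exact test). Replicate X shares of 31.9%, 32.3% and 32.0% lay below autosomal shares of 45.9%, 44.1% and 44.6%. Sequence between genes was itself 25.4% of the X and 31.6% of the autosomes. Per Mb of it, X summits numbered 72.3 and autosomal ones 77.2. That ratio of 0.937 did not pass (exact binomial test, adjusted p = 0.258). Replicates 1, 2 and 3 gave ratios of 0.973, 0.930 and 1.01, and none passed. The 3′ UTR held 2.26% of X summits against 1.44% (adjusted p = 0.0471), and exons of non-coding genes held 1.75% against 2.97% (adjusted p = 0.0258, Fisher's exact test). The non-coding exon call was lost without 2L (adjusted p = 0.0515, Fisher's exact test) and without replicate 2 (adjusted p = 0.0658), and it did not pass in replicate 3 (adjusted p = 0.0779). The 3′ UTR call was lost in 7 alternatives, among them each set without 1 replicate (adjusted p 0.0687 to 0.298, Fisher's exact test). The 5′ UTR, with 8.53% against 8.35%, and coding exons, with 0.510% against 0.541%, did not pass the test.

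**Figure D2:**
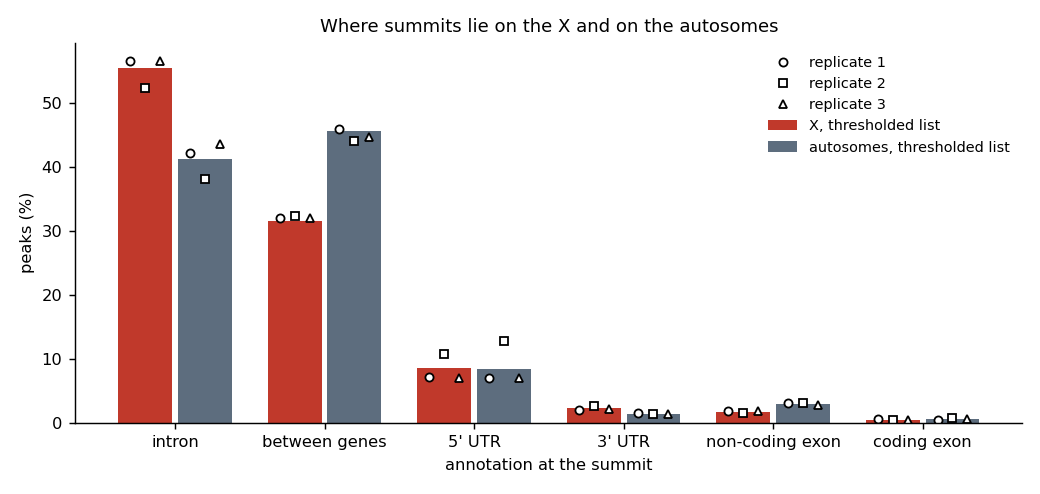
Percentage of peaks by annotation at the summit, on the X (red) and the autosomes (grey). Bars are the thresholded list and points the 7291 strongest peaks of each replicate; the lowest X intron share of a replicate is 52.3% and the highest autosomal one 43.6%.

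Counts per Mb of each class take the sequence composition into account; this comparison was chosen after the shares had been seen. Distal peaks numbered 37.7 per Mb of non-promoter sequence on the X and 31.0 on the autosomes, a ratio of 1.22 (exact binomial test, adjusted p = 2.83e-06). Distal peaks in introns numbered 58.9 per Mb of intron outside promoters on the X and 43.4 on the autosomes. The ratio was 1.36 (exact binomial test, adjusted p = 9.63e-10). Replicates 1, 2 and 3 gave 61.8, 51.5 and 62.9 per Mb on the X against 44.1, 39.1 and 46.6. The replicate ratio was 1.36 ± 0.0419 (SD, n = 3), and no autosomal value reached an X value.

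The intron density on the X was above that of every other chromosome or arm, with 46.8 on 2L, 45.7 on 3L, 42.4 on 3R, 41.9 on 2R and 1.72 on chromosome 4. The ratio stayed between 1.31 and 1.47 when an autosome or arm, weaker peaks or overlapping peaks were left out, or weaker pooled peaks were added. It also did so in the sets without 1 replicate, the thresholded peaks shared with both other replicates. It was 1.35 in the 100 kb bins with under 50% repeat-masked sequence. Distal peaks between genes went the other way, with 24.5 per Mb on the X and 30.1 on the autosomes (ratio 0.814, exact binomial adjusted p = 0.0384). That difference passed the same test in replicate 2 alone of the 3 (exact binomial adjusted p of 0.0617, 0.00819 and 0.147). It was lost among the 3645 strongest peaks, without 2L, without 3L and without each replicate (exact binomial unadjusted p 0.0576 to 0.115). These alternatives were judged by unadjusted p. It was 0.0414 without 3R and 0.0383 in the pooled list cut at a q-value of 0.05 (exact binomial test). Promoter peaks numbered 224 and 227 per Mb of promoter sequence, a ratio of 0.987 that did not pass the test (exact binomial p = 0.804).

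**Figure D3:**
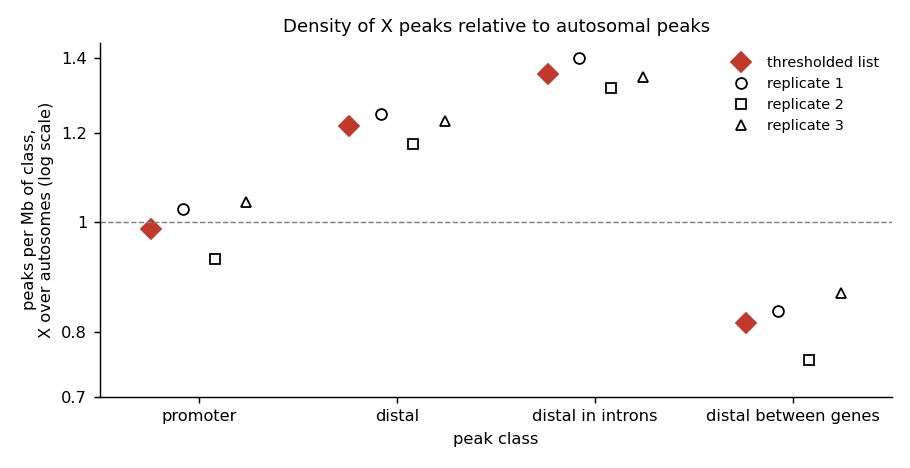
Ratio of X to autosomal peak density, in peaks per Mb of each class of sequence, on a log2 axis. Diamonds are the thresholded list and open points the replicates; distal peaks in introns lie near 1.36 in all 4 lists, promoter peaks on both sides of 1, and distal peaks between genes below 1.

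The 760 X intron summits fell in 332 genes, of which 178 held a single one and 40 held 5 or more. The genes with the most, picked for this description after their counts were seen, include adhesion and signalling genes. The share of such genes on the whole X was not counted. The 394 kb gene kirre, an immunoglobulin-family adhesion protein of muscle founder cells, held 27, with a highest signal of 1076. That is 68.5 intron peaks per Mb of its gene span. Over the whole X, intron summits numbered 69.1 per Mb, counted per Mb of intron and not of span. Of the 27, 24 were distal. The kirre span contains starts of other genes, and a summit in a kirre intron lay 181 bp before the start of Syx4. Density was higher in some shorter genes. The forkhead gene CHES-1-like held 11 peaks in 27.0 kb (407 per Mb), and Mnt, which encodes the fly partner of Max that counters Myc, held 10 in 29.9 kb (335 per Mb).

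Raf, the kinase between Ras and MEK, held 11 intron peaks in 48.4 kb (227 per Mb), the strongest at 2467. The nuclear receptor gene Hr4 held 9 peaks, and Ten-a, which encodes a teneurin of synapse partner matching, held 12 in 292 kb (41.2 per Mb). CG1677 held 20, but its 125 kb span contains other genes, brk among them, whose starts are nearest to some of these summits. Replicates 1, 2 and 3 placed 29, 27 and 33 peaks in the kirre span, 12, 11 and 14 in that of CHES-1-like, and 12, 13 and 12 in that of Raf. Long genes were somewhat more frequent on the X, where 9.02% of protein-coding genes spanned over 20 kb, against 6.94% on the autosomes.

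The number of X peaks was slightly above its share of sequence. The X is 17.6% of the sequence of the 6 chromosomes and held 18.8% of peaks (Clopper-Pearson 95% interval 17.9 to 19.7; ratio 1.07, exact binomial adjusted p = 0.0123). Replicates 1, 2 and 3 had 1412, 1303 and 1415 X peaks of 7291, a mean of 18.9% ± 0.875 (SD, n = 3), so replicate 2 had the fewest. The excess passed in replicates 1 and 3 (exact binomial adjusted p of 0.000154 and 0.000222) and not in replicate 2 (ratio 1.02, adjusted p = 0.518). The call in the thresholded list was lost among the 3645 strongest peaks (ratio 1.03), without 2R (1.05), and against the 100 kb bins that hold a gene start (1.03). Against the X share of protein-coding genes the ratio was 1.19 (exact binomial adjusted p = 8.20e-12). By chromosome, the X held 58.3 peaks per Mb, with 57.2 on 2L, 54.8 on 3R, 54.0 on 3L, 49.9 on 2R and 27.4 on chromosome 4. In replicate 2 the density on 2L was above that on the X, at 58.2 against 55.3. Along the X, 23 full bins of 1 Mb held 8 to 84 peaks, with a median of 64. The bin with the fewest was chrX:22000001-23000000, near the centromere, with 46 protein-coding genes, and the bin with the most was chrX:3000001-4000000, with 55. Across the 23 bins, which share a chromosome, peak number and gene number had a Spearman rho of 0.431. The longest stretch without a summit was 817751 bp, from 21631710 to 22449461.

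X peaks had a median signal of 309 and autosomal peaks of 321, a ratio of 0.963 that did not pass the test (Fisher's exact test of the share above the median, adjusted p = 0.150). The replicate ratios were 0.952, 0.964 and 0.947, and the same test passed in replicates 1 and 3 (adjusted p of 0.0300 and 0.0379) and not in replicate 2 (0.0888). In the whole replicate lists, which reach far weaker peaks, the ratios were 1.11, 0.961 and 1.13. There X signal was higher in replicates 1 and 3 and lower in replicate 2 (adjusted p of 1.39e-08, 2.87e-15 and 0.00529, Fisher's exact test). The direction thus depended on how deep the list went. In each set without 1 replicate a lower X signal passed (ratios 0.918 to 0.933, adjusted p 0.00150 to 0.00578, Fisher's exact test). These sets are the thresholded peaks shared with both other replicates. The signal in these sets is still that of the thresholded list. X promoter peaks had a median of 325 and autosomal ones of 362, a ratio of 0.897 (adjusted p = 0.00180 by Fisher's exact test). In replicates 1, 2 and 3 the X promoter medians were 140.1, 110.1 and 79.4, against autosomal medians of 163, 121 and 93.1. The ratios were 0.860, 0.910 and 0.853, all below 1. Among the 3645 strongest peaks the promoter ratio was 0.958 and did not pass (Fisher's exact test, adjusted p = 0.515).

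Distal X peaks had a median of 298 against 289, a ratio of 1.03 that did not pass (adjusted p = 0.263, Fisher's exact test), and replicate ratios of 1.03, 1.02 and 1.05. The odds ratio, X over autosomes, of lying above the median of the class was 0.736 for promoter peaks and 1.09 for distal peaks. The log2 values of these odds ratios differed by −0.57 ± 0.18 (SE) (Zelen's exact test, p = 0.00110). This test was chosen after the 2 ratios had been seen. In replicates 1, 2 and 3 its exact p was 0.00116, 0.0169 and 0.000293. A median GC content of 33.7% within 50 bp of the summit was shared by X and autosomal peaks. X promoter peaks had a GC median of 37.1% against 36.6%. The X held 1 of the 10 strongest peaks of the list, 15 of the 100 strongest and 169 of the 1000 strongest (16.9%).

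**Figure D4:**
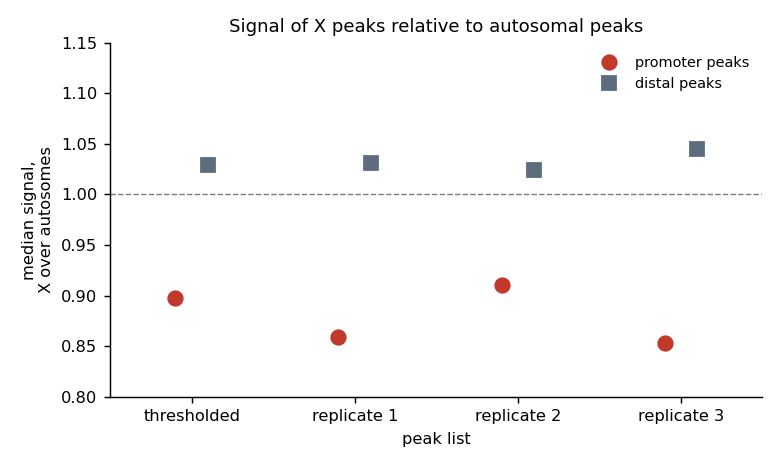
Median signal of X peaks divided by that of autosomal peaks, for promoter peaks (circles) and distal peaks (squares), in each list. Promoter ratios lie between 0.853 and 0.910 and distal ratios between 1.02 and 1.05.

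Of 2196 protein-coding genes on the X, 657 (29.9%, Clopper-Pearson 95% interval 28.0 to 31.9) had a promoter peak and are called bound. Of all 13945 protein-coding genes, 30.4% were bound, and of the autosomal ones 30.5%. The difference was −0.595 percentage points (Newcombe 95% interval −2.65 to 1.52; Fisher's exact test, p = 0.596). Replicate odds ratios were 1.03, 0.896 and 1.06, on both sides of 1. The value depended on how deep the list went. Among the 3645 strongest peaks of the list X genes were bound less often (odds ratio 0.804, Fisher's exact test, adjusted p = 0.000908). In the pooled list cut at a q-value of 0.05, which holds weaker peaks too, they were bound more often (odds ratio 1.14, adjusted p = 0.00842, Fisher's exact test).

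The strongest X peak was at Ugalt, the Golgi UDP-galactose transporter. Its signal was 6383 and its rank 4 of 7291, and the summit lay 42 bp before the start. In replicates 1, 2 and 3 its signal was 2781, 1923 and 1733, and its ranks were 4, 7 and 4. The second was in the Polycomb group gene ph-p, at 4700, with 2224, 1271 and 1298 in the replicates. The near-identical neighbour ph-d may share reads with ph-p, and how such reads were assigned is not given in the sources used here. Replicate signals have to be read against the medians of the X peaks in those lists, which were 133, 109 and 72.2.

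Hsc70-3, which encodes BiP, the main Hsp70 of the ER lumen, had several peaks at its start. The strongest, 92 bp from a start, had a signal of 4194, and replicates 1, 2 and 3 gave 1235, 2291 and 696. It ranked 61, 3 and 61 in those lists. A second summit, 77 bp before the start, had 3132, and replicates gave 892, 1694 and 566. Another summit in the same interval had 2398 and shares those replicate values. Replicate 2 thus gave Hsc70-3 its best rank, unlike Ugalt.

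Of the 10 strongest X peaks 5 were promoter peaks and 5 had the summit in an intron. CG32772 had the strongest distal X peak, in an intron 1256 bp from the start, with 4360 in the list and 1933, 1309 and 1129 in the replicates. The Tousled-like kinase gene Tlk followed, with 3033 in the list and 1272, 995 and 786 in the replicates, 2336 bp inside. The 2 summits nearest to CG4004 lay in exons of non-coding RNA genes, 6061 and 5111 bp from its start, at 2944 and 2801. CG3726 had 2717 in an intron, and MFS10, which encodes a transporter of the major facilitator family, had 2566 at 158 bp from a start. At the other end, the 3 weakest X peaks had signals of 172.8 (CG3699), 172.6 (Tpst, a tyrosylprotein sulfotransferase) and 172.5 (Ldsdh1, a lipid droplet dehydrogenase). In the whole replicate lists each overlapped a peak in all 3, for instance at 95.1, 46.1 and 22.8 for CG3699, but none did so in all 3 lists cut to 7291 peaks.

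Genes of ER folding and of transport were bound on the X in most cases. The X list of ER chaperones and folding enzymes had 5 of 6 members bound, with 13 of 16 on the autosomes and 30.4% among all genes. After Hsc70-3, Grp170, a large Hsp70 relative of the ER, had 1361, with 400, 744 and 238 in replicates 1, 2 and 3. The ER thioredoxin-like protein gene prtp had 806, with 382, 230 and 193. The calnexin gene Cnx14D had no overlapping promoter peak in any of the 4 lists. For ER stress signalling the only X-linked member, the translation factor gene eIF2alpha, was bound in replicate 2 alone and not in the thresholded list. For ER-associated degradation, 1 of 3 was bound, Edem1 at 225, and the ubiquitin-conjugating enzyme gene Ubc7 and the ubiquilin gene Ubqn were not, while 9 of 11 autosomal members were.

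The translocon and signal peptide list had 4 of 5 X-linked members bound and 16 of 18 autosomal ones. TRAM, a protein of the translocation channel, had 2102, with 930, 677 and 500 in the replicates. l(1)G0320 had 1108, and Sec61gamma, a channel subunit, had 363, while the signal peptidase gene Spase25 was not bound in the thresholded list. Among N-glycosylation and nucleotide sugar transport genes 3 of 6 were bound. Besides Ugalt these were Stt3A, the catalytic subunit of oligosaccharyltransferase, at 1924 (781, 727 and 429 in the replicates), and Ost48, another subunit, at 233. The Stt3A peak also lay within 500 bp of the start of bves. Alg14 and the GDP-fucose transporter gene Efr were not bound. On the autosomes 13 of 21 were bound.

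Vesicle transport had 7 of 8 X-linked members bound and 22 of 30 autosomal ones. The coatomer gene deltaCOP had 1041, with 436, 322 and 282 in replicates 1, 2 and 3. The cargo receptor gene p24-1 had 1022, with 332, 488 and 197, and the SNARE gene Ykt6 had 675. The gene opm was not bound. Rab GTPases, which direct vesicle targeting, had 7 of 8 bound, led by Rab39 at 700, Rab40 at 380 and Rab18 at 372, and RabX2 was not bound. Of the 8, replicates 1, 2 and 3 had 7, 4 and 7 bound, and of 20 autosomal Rab genes 10 were bound.

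Outside the secretory pathway, both X-linked glycolysis genes were bound, Gapdh2 at 2032 (814, 816 and 406 in the replicates) and the hexokinase gene Hex-A at 981. On the autosomes 8 of 13 were bound. All 14 X-linked ribosomal protein genes were bound, led by RpL22 at 738, RpS28b at 641 and RpL17 at 632, against 62 of 78 autosomal ones. The proteasome list had 1 of 6 bound, Prosalpha4 at 245, against 19 of 42. Its unbound members included Prosbeta2R1 and Rpn13R. None of 14 X-linked chemoreceptor genes was bound, and 1 of 105 on the autosomes.

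The dosage compensation and sex determination lists together had 6 X-linked protein-coding members. Of these, Sxl and snf, 2 of 6, were bound, beside the 30.4% of all genes. By list, 0 of 1 dosage compensation and 2 of 5 sex determination members were bound. Of the dosage compensation genes, the start of the non-coding RNA gene roX1 had a peak of 255, with 93.9, 97.7 and 69.2 in the replicates, and roX2 had none in the thresholded list. The protein-coding gene mof was not bound in the thresholded list or in any replicate list of 7291 peaks, and 6 of 9 autosomal members were bound in the thresholded list. Weaker peaks of the whole replicate lists lay at mof in replicates 1 and 2 (35.4 and 27.3). Of the sex determination genes, Sxl, the master switch of female fate, had 508 (225, 146 and 147 in the replicates). snf, a splicing factor that acts with Sxl, had 353 (170, 106 and 75.6). The X-linked signal element genes run, sc and sisA were not bound in those 4 lists either, with weaker peaks of the whole lists at run in replicate 2 (26.8) and at sisA in replicates 1 and 2 (30.3 and 26.2). On the autosomes 7 of 13 were bound.

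Of 27 X-linked entries in the patterning, neuronal, muscle and oogenesis lists, 4 were bound, beside 30.4% of all genes and 8 of 61 autosomal entries. Of the 7 patterning genes, N, the Notch receptor, was bound at 312, and arm and btd were not, with 5 of 30 bound on the autosomes. Of 5 neuronal genes (0 of 10 on the autosomes), elav, an RNA-binding protein of neurons, was bound, at 2046 with 920, 595 and 535 in the replicates. The elav summit lay 249 bp before its start, in an intron of the neighbouring gene arg. Appl and fne were not bound in the thresholded list. Both muscle genes, up and wupA, were unbound, against 3 of 13 bound on the autosomes. Of 13 oogenesis and chorion genes, fs(1)h, a bromodomain gene, at 508 and fs(1)N at 212 were bound, while the chorion genes Cp36 and Cp38 were not, and 0 of 8 were bound on the autosomes.

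**Figure D5:**
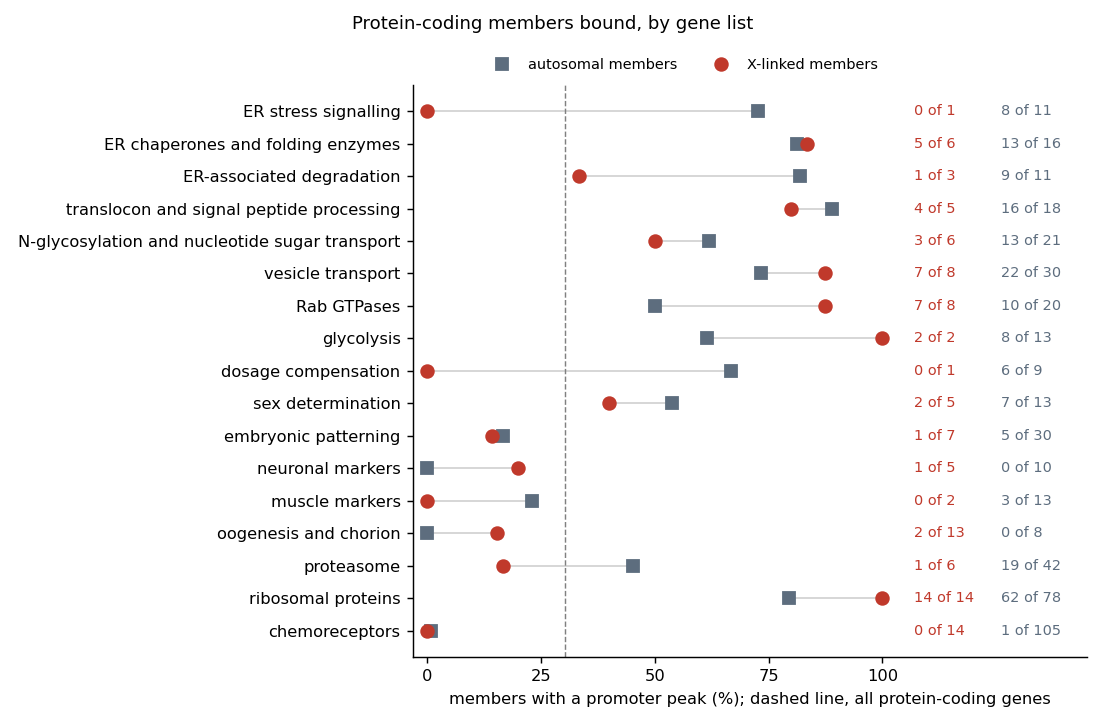
Percentage of protein-coding members with a promoter peak in the thresholded list, for X-linked (red circles) and autosomal (grey squares) members, with the counts at the right. The dashed line is the 30.4% of all protein-coding genes; the lists above it on both include ER chaperones, translocon, vesicle transport, Rab, glycolysis and ribosomal proteins.

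Across the 1372 X peaks, 75.4% overlapped a peak in all 3 replicate lists of equal length, against 72.8% on the autosomes (odds ratio 1.14, Fisher's exact test, p = 0.0536). By replicate the overlap was 93.9%, 84.6% and 90.5%, lowest in replicate 2, and 2 X peaks were in none. Autosomal overlaps were 92.1%, 85.0% and 87.6%, also lowest in replicate 2. Signals of X peaks were most alike in order between replicates 1 and 3 (Spearman rho 0.895 over 1356 peaks) and less so with replicate 2 (0.815 with replicate 1 and 0.788 with replicate 3). Autosomal peaks had the same order, with rho of 0.900, 0.796 and 0.775 for these pairs.

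The ranks of the 7 X peaks with the UPR element are given as a description with no test, since their pattern was noticed in these data and is part of why they are shown. Ranks here are in the whole replicate lists, before the cut to 7291 peaks. In 6 of the 7 the rank was better in replicate 2 than in replicates 1 and 3. This held for 314 of the 1339 X peaks (23.5%) that overlapped a peak in all 3 whole lists, and for 32.3% of X promoter peaks. Sec22, a SNARE of ER to Golgi transport, ranked 3983, 1068 and 5338 in replicates 1, 2 and 3. Gmap, a golgin, ranked 4884, 1244 and 4666. SrpRalpha, a subunit of the signal recognition particle receptor, ranked 6390, 1301 and 5682. The exception was CG12539, which ranked 7476, 5798 and 5018. These genes were picked for the element, not by the rule used elsewhere.

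The element occurred at 0.510% of X summits and 0.558% of autosomal summits (odds ratio 0.915, Fisher's exact test, adjusted p = 1). In X flanks centred 500 bp away it occurred at 0.0729% and 0%. It was held by 0.546% of X promoters, 300 bases around each start, and 0.306% of autosomal ones. In the thresholded list no motif of 8 passed the test (Fisher's exact test, adjusted p of 0.144 or more), and 1 had an unadjusted p under 0.05. That was CACACACA, read on both strands, at 1.53% of X summits and 0.794% of autosomal ones (Fisher's exact p = 0.0180). It passed in replicate 1 (odds ratio 2.43, Fisher's exact test, adjusted p = 0.0123) but not in replicates 2 and 3. It also passed without replicate 1 (adjusted p = 0.0346, Fisher's exact test) and in windows of 100 bp to each side (adjusted p = 0.0169). It was more frequent in the flanks, at 5.03% and 5.83% on the X and 3.13% and 3.53% on the autosomes. ACGTG occurred at 7.87% and 8.13% of summits and the DRE site TATCGATA at 2.55% and 2.74%. ACGTG was somewhat more frequent in the flanks, at 9.33% and 9.62% on the X and 10.1% and 9.14% on the autosomes.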

How the data were processed

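The files were peak lists in dm6 and dm3 for 3 ChIP-seq replicates of 1 group. Per the text lists deposited by the authors, a control alignment was used in calling, and the thresholded dm6 peaks derive from pooled and single-replicate lists. The sources used here do not give the aligner, caller, versions or the scale of the authors' signal value. Of replicates 1, 2 and 3, the authors' −log10 q-value passed 0.05 for 9930, 16056 and 8109 peaks. Read depth is unknown, so precision was taken from numbers of peaks and from replicate spread.

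Annotation was Ensembl BDGP6.54 (release 115, transposable elements left out) and sequence was Release 6; no peak or gene ran past a chromosome end. Where annotations overlapped, a summit took coding exon first, then 5′ UTR, then 3′ UTR, then exons of non-coding genes, then intron. Replicates were cut to their 7291 strongest peaks, and replicate signals and ranks of single peaks and genes came from the whole lists (strongest overlapping peak, 1 bp or more, or strongest promoter peak). Of the X peaks 60 overlapped a stronger one. Tests were two-sided with Benjamini-Hochberg adjustment within each family, at a threshold of 0.05. The alternatives for density were judged by unadjusted p. Intervals cover counting error only.

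Of 319 listed names, 285 were found by symbol and 19 by synonym, 8 were unmatched, and 7 were set aside as naming unrelated genes or genes of unsure role; ribosomal, proteasome, Rab and chemoreceptor genes were taken by symbol pattern. Named were the genes nearest to the 10 strongest, 3 strongest distal and 3 weakest X peaks, up to 3 bound and 2 unbound X-linked members of each list, and all of the dosage compensation and sex determination lists. Members and lists were chosen with earlier results of these data known. The share test was checked on simulated data. Computation was in Python 3.11.15 with SciPy 1.17.1, NumPy 2.4.6 and pandas 2.3.3, and figures were drawn with Matplotlib 3.10.9.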

Additional observations from a re-analysis of the deposited data

Results flagged for a closer look

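The effect of the X on signal differed between promoter and distal peaks. X promoter peaks had lower odds of lying above the median of promoter peaks, and distal X peaks did not, and the difference of the log2 odds ratios was −0.57 (Zelen's exact test, p = 0.00110). Promoter ratios of median signal were below 1 and distal ratios above 1 in 3 of 3 replicates. Among the 3645 strongest peaks the promoter ratio was 0.958 and no longer passed (Fisher's exact test, adjusted p = 0.515). The part of X copy number in this difference was not tested.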

How the results depend on the processing

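The promoter share, the intron and between-gene shares and the densities of all distal and of distal intron peaks kept their direction and call under every alternative made on the thresholded and pooled lists. Of the alternatives to the main results, 126 of 163 kept theirs, where 3 location classes called in place of 4 was taken as kept. For single location classes and motifs it was 123 of 162, and 28 changed sides of 1. Among the 3645 strongest peaks, X peak number (1.03) and promoter signal (0.958) lost their call, while genes bound (0.804) and replicate overlap (4.87) passed. Promoter density (0.871) was under the threshold there by unadjusted p alone (exact binomial test, p = 0.030), since alternatives for density were not adjusted. Overlap also passed without 2L (1.18), without 2R (1.16) and at 50% overlap (1.19). X peak number lost its call without 2R (1.05) and against bins with a start site (1.03). Genes bound turned to above 1 without 3R (1.01), at 1000 bp (1.01) and in the pooled list cut at a q-value of 0.05 (1.14). The sets without 1 replicate are thresholded peaks shared with both other replicates, so their peaks and signal still derive from all 3. In them X signal passed at 0.918 to 0.933, and location classes called numbered 2 to 3 (4 with all). Motifs called numbered 0 to 1, and promoter density ran from 0.990 to 1.02. The classes numbered 2 without 2L, and the motifs 1, CACACACA, at a 100 bp window. Judged by unadjusted p, distal density between genes lost its call among the 3645 strongest (0.772), without 2L (0.858), without 3L (0.843) and without each replicate (0.812 to 0.856). Promoter density also turned without 3R (1.01) and in the pooled list (1.04). Averaged over replicates, the cut at 0.05 gave 0.854 (promoter share), 1.13 (genes) and 0.975 (signal), and whole lists gave 0.998, 1.18 and 1.07, with peak number at 1.00. By replicate the peak number ratio in the whole lists was 1.02, 1.07 and 0.927, so replicate 3 had fewer X peaks than its share of sequence. The signal ratio in the whole lists was 1.11, 0.961 and 1.13, so it turned to above 1 in replicates 1 and 3. The dm3 thresholded list had 1308 of 6932 peaks on the X; its density was not run.

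Odds ratios that were never called changed sides of 1. Without one replicate they ran from 0.571 to 1.31 for coding exons and from 0.952 to 1.01 for 5′ UTR, and by motif from 0.830 to 1.09 (TGACGTGG), 0.784 to 1.00 (CACGTG), 0.988 to 1.10 (ACGTG) and 0.698 to 0.848 (GAGAGAGA). The 3645 strongest gave 1.21 for TGACGTGG, 1.38 for CACGTG, 1.16 for ACGTG and 0.906 for GAGAGAGA. Without overlapping peaks, TGACGTCA was at 1.08 and coding exons at 1.00. TATCGATA reached 1.03 without 2R, 1.00 without 3R and 1.03 at 100 bp, where ACGTG was at 1.01. Without 3L, TGACGTGG and TGACGTCA were at 1.07, and without 3R coding exons were at 1.18 and 5′ UTR at 0.933. The pooled list gave 0.917 for 5′ UTR, 1.75 for TGACGTCA, 0.998 for GAGAGAGA and 1.23 for TATCGATA. The causes were not tested. No paired analysis was possible because the 3 samples are replicates of a single group.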
